A study of Mus musculus with 4 samples.

Results

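Pax6, Irx3, Nkx6-1, Nkx2-2 and Neurog2, 5 genes that divide the developing neural tube into progenitor domains and start neurogenesis in it, were examined for the chromatin contacts that each made within 500 kb. They were taken by name, as 5 of the 21755 protein-coding genes on the listed chromosomes. Their contacts were all listed pairs of 8 kb bins with 1 bin in a window of whole bins at the gene and the other outside it, 16 to 496 kb away. This left 1853 listed pairs of 2166 possible ones in ESCs and 1594 of 2166 in MNs.

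Micro-C, which maps contacts between stretches of chromatin after cutting them with micrococcal nuclease, was used on E14 mouse embryonic stem cells (ESCs) and on cervical motor neurons (MNs) made from them in vitro. MNs came from embryoid bodies given 1 μM all-trans retinoic acid (RA) and 0.5 μM smoothened agonist (SAG), which turns on Hedgehog signalling. In each cell state, WT cells were compared with cells in which Patz1, the gene of a G-rich-binding zinc finger protein, had been knocked out by CRISPR (PATZ1 KO), to ask whether PATZ1 takes part in genome organization. KO lines were grown from single clones, and how many clones the library came from was not given in the sources used here. All 4 groups share the E14 background, each has 1 library, and no difference below has a replicate check.

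The ESC list held 23095428 pairs and the MN list 21005697, with 110991835 to 170946673 contacts summed per library. Pairs seen in only 1 of the 2 libraries of a cell state are not listed. The value columns are numbered, not named, and every direction given here rests on number 1 being WT and number 2 PATZ1 KO, as the files name the comparison WT first. The read numbers that the study lists rank WT and PATZ1 KO the other way round from these contact sums, in ESCs and in MNs, so the assignment is not settled. Turned round, every ratio of the genotypes would change sign and every rank on it would move to the opposite end, with its size kept. Turned round in both cell states, the WT and PATZ1 KO values of MNs over ESCs, and their background shares, would change places. The bin of Patz1 that holds its start (chromosome 11, 3288001 to 3296000) counted 276 contacts in the WT library and 162 in the PATZ1 KO library of ESCs, and 171 against 101 in MNs. The next bins within Patz1 differed less, at 335 and 308 contacts and at 327 and 260 in ESCs, and at 261 and 190 and at 256 and 186 in MNs. Relative to expectation, the first of these was higher in the PATZ1 KO library of ESCs, at 0.992 against 0.948. Contacts do not show whether the gene is disrupted. Contact lists hold no RNA levels, so the markers of ESCs and MNs could not be checked.

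In the ventral neural tube, a Sonic hedgehog gradient represses one set of homeodomain genes and induces another, and pairs of repressors sharpen the borders between the domains. Pax6 and Irx3 belong to the repressed set, which holds the more dorsal domains, and Nkx6-1 and Nkx2-2 to the induced set, Nkx2-2 marking the progenitors next to the floor plate. Neurog2 is a proneural bHLH factor that drives progenitors, those of motor neurons included, out of the cell cycle. Genes of this kind often stand in wide intergenic regions, and enhancers of Pax6 and of Irx3 are known inside the introns of their neighbours Elp4 and Fto.

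Positions are those of the mouse assembly GRCm38. Pax6 lies on chromosome 2 from 105668900 to 105697364 (plus strand), Irx3 on chromosome 8 from 91798525 to 91802067 (minus strand) and Nkx6-1 on chromosome 5 from 101658139 to 101664996 (minus strand). Nkx2-2 lies on chromosome 2 from 147177546 to 147194243 (minus strand) and Neurog2 on chromosome 3 from 127633135 to 127635631 (plus strand). The windows in whole bins covered 6 bins for Pax6, 4 for Irx3, 3 each for Nkx6-1 and Nkx2-2 and 2 for Neurog2. RefSeq held promoter sequences of 5 of the 5 genes, with 2 start sites for Pax6 and 1 for each other gene.

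The 250 bases upstream of the start sites were searched on both strands for GGGAGGG, a G-rich string like those bound by zinc fingers related to PATZ1, chosen with the contacts known. It occurred in 19.7% of the 32851 RefSeq promoter windows of 250 bases. Neurog2 had 2 matches on its own strand and Nkx2-2 had 4 on the opposite strand, a number reached by 0.517% of the windows. None was found upstream of Pax6, Irx3 or Nkx6-1. The 250 bases before Neurog2 and before the upstream start of Pax6, both outside annotated exons apart from the last base of the Neurog2 window, are shown 5′ to 3′ with the string in capitals, to set a promoter with the string beside one without it. Their positions are chr3:127632886-127633135 and chr2:105668646-105668895, both on the plus strand of RefSeq's GRCm38.p6.
Neurog2: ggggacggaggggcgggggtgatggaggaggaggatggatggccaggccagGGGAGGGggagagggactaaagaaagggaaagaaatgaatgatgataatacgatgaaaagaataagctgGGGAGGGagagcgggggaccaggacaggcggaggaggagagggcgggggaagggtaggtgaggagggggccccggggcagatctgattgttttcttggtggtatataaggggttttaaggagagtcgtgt
Pax6: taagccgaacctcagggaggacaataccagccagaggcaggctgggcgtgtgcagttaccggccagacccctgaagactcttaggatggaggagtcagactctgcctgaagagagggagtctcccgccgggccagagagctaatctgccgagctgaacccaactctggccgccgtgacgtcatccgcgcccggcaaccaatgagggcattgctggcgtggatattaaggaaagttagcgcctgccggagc

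The 18 bins of the 5 windows and the 25 distal bins described below were also searched on both strands for CC, any 3 bases and then AGGGGGC, letters from the core of the motif of CTCF, the main boundary protein of mammalian genomes. The string occurred in 4.13% of 319934 bins of the genome, in 4 of the 18 window bins and in 5 of the 25 distal bins. The matches are shown on their own strand with 4 bases on either side and the string in capitals, to show which of the bins described hold it. A match describes letters only. Its free bases allow the string to hold GGGAGGG, which none of the matches shown does.
Kiz intron, farther bin, chr2:146959741-146959760, plus strand: ctggCCATCAGGGGGCgctc
Kiz intron, nearer bin, chr2:146965762-146965781, plus strand: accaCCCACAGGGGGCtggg
Beyond Kiz, chr2:146682987-146683006, minus strand: gtccCCGGTAGGGGGCtacc
Nkx2-2 window, intron of the long annotated transcript, chr2:147190967-147190986, minus strand: ctccCCAACAGGGGGCgtaa
Nkx6-1 desert, chr5:101367511-101367530, plus strand: actcCCCCCAGGGGGCaaaa
Nkx6-1 window, downstream of the gene, chr5:101648526-101648545, plus strand: caggCCTGCAGGGGGCgcac
Nkx6-1 window, downstream of the gene, chr5:101654858-101654877, minus strand: tcttCCTTCAGGGGGCagtg
Fto intron, chr8:91532162-91532181, plus strand: acggCCTGCAGGGGGCactg
Neurog2 window, upstream of the gene, chr3:127626241-127626260, minus strand: ccggCCGTGAGGGGGCggcc
Neurog2 window, coding exon, chr3:127634261-127634280, plus strand: gtggCCTCCAGGGGGCgctc

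Contact levels are given, for the WT and then the PATZ1 KO library of ESCs followed by the same for MNs, as observed over expected, the contacts of a gene divided by the mean of all pairs at the same distances on the same chromosome in the same library. Intervals are exact 95% intervals and cover counting error only. Percentiles set a gene beside windows of the same number of bins around every protein-coding promoter. Every level but that of Nkx6-1 in WT ESCs was above 1, though the intervals of Nkx2-2 in both MN libraries also held 1.

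Pax6, a paired homeodomain factor of eye and neural progenitors, had 2870 and 2734 contacts in ESCs and 1847 and 1871 in MNs. These were 1.246, 1.33, 1.30 and 1.33 times expected. The levels of the 4 libraries lay close together and above those of 87.9% to 95.4% of promoter windows.

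Irx3, an Iroquois homeodomain factor of the more dorsal progenitors, had 2611, 2581, 2247 and 1790 contacts in the same order. These were 1.10, 1.18, 1.50 and 1.22 times expected. WT MNs stood apart as the highest library, with an interval of 1.43 to 1.56 that overlapped no other.

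Nkx6-1, a homeodomain factor of ventral progenitors and motor neurons, had 1118, 1173, 937 and 802 contacts. These were 0.95, 1.06, 1.27 and 1.10 times expected. WT MNs were again the highest library and WT ESCs the lowest, with intervals of 1.19 to 1.35 and 0.895 to 1.01.

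Nkx2-2, which specifies the most ventral progenitors below those of motor neurons, had 1738, 1607, 862 and 816 contacts. These were 1.34, 1.39, 1.06 and 1.02 times expected. Both ESC libraries lay above both MN libraries, and the intervals of 1.28 to 1.41 and 1.32 to 1.46 did not reach those of MNs, 0.994 to 1.14 and 0.954 to 1.10.

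Neurog2 had 1073, 910, 670 and 679 contacts, which were 1.20, 1.13, 1.28 and 1.22 times expected. All of its intervals overlapped, with bounds from 1.06 to 1.38.

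PATZ1 KO was then compared with WT at the 5 genes. Pairs missing from either library of a cell state are not listed, and the part of this in the ratios was not tested. A difference was counted when its log2 ratio passed 0.32 in either direction, and none of the 5 did so between the genotypes in either cell state. In ESCs the PATZ1 KO library relative to WT stood at a log2 ratio of 0.09 (0.01 to 0.17) for Pax6, 0.10 (0.02 to 0.18) for Irx3, 0.16 (0.04 to 0.28) for Nkx6-1, 0.05 (-0.05 to 0.15) for Nkx2-2 and -0.09 (-0.22 to 0.04) for Neurog2. Thus 0 of the 5 passed the threshold, where 6.08% of 18017 single promoter bins and 3.55% to 4.54% of windows of 2 to 6 bins did. The median of the 5 was 0.09 and that of all promoter bins was -0.05, and the ranks ran from percentile 37.8 for Neurog2 and 81.0 for Nkx2-2 to 95.9 for Nkx6-1. With the columns turned round the same 4 genes would lie in the lower part of the distribution.

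In MNs the same ratio was 0.04 (-0.05 to 0.13) for Pax6, -0.30 (-0.39 to -0.21) for Irx3, -0.20 (-0.34 to -0.06) for Nkx6-1, -0.06 (-0.20 to 0.08) for Nkx2-2 and -0.07 (-0.22 to 0.09) for Neurog2. The median of the 5 was -0.07 and that of all promoter bins was lower, at -0.16. Ranks among promoter windows of the same size ran from percentile 26.6 for Irx3 and 43.7 for Nkx6-1 to 77.04 for Pax6. Again 0 of the 5 passed the threshold, where 30.9% of single promoter bins and at least 26.4% of such windows, at each size, did. Irx3 was nearest to it, and passed it at -0.35 with a reach of 250 kb, at -0.42 with library totals and at -0.32 with an expectation over all autosomes. From its promoter bin alone the ratio of Irx3 was -0.02. The ratio moved with base composition across the genome: its median over promoter bins ran from 0.33 in the lowest of 10 GC classes to -0.38 in the highest, while in ESCs all classes lay between -0.07 and -0.03. The promoter bins of the 5 genes held 49.3% to 56.8% GC, in the 3 highest classes. The counting intervals of the MN ratios of the 5 promoter bins alone all held 0. These ratios were all below 0, at -0.05 for Pax6, -0.02 for Irx3, -0.10 for Nkx6-1, -0.0009 for Nkx2-2 and -0.17 for Neurog2. Relative to promoter bins of the same class they were 0.27 for Pax6, 0.38 for Nkx2-2, 0.12 for Neurog2, 0.19 for Nkx6-1 and 0.35 for Irx3, all above 0, so the sign turned with this correction and Nkx2-2 and Irx3 came past the threshold. The part of GC content in the ratios was not tested.

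By distance, the PATZ1 KO over WT ratio of Irx3 in MNs was -0.40 (-0.64 to -0.16) at 16 to 40 kb, -0.40 (-0.55 to -0.25) at 48 to 200 kb and -0.20 (-0.33 to -0.07) at 208 to 496 kb. It was below 0 in every distance class. The ratio of Pax6 at 208 to 496 kb was 0.20 in ESCs (0.09 to 0.32) and 0.20 in MNs (0.05 to 0.35). At 48 to 200 kb the interval held 0 in both, from -0.12 to 0.12 in ESCs and from -0.14 to 0.15 in MNs. At 16 to 40 kb the ratio was -0.01 (-0.21 to 0.18) in ESCs. In MNs it was -0.24 (-0.47 to -0.01), opposite in sign to that at 208 to 496 kb. In MNs Nkx2-2 stood at -0.27 (-0.51 to -0.03) at 208 to 496 kb and Nkx6-1 at -0.25 (-0.47 to -0.03) at 48 to 200 kb. In ESCs Irx3 stood at 0.13 (0.01 to 0.25) at 208 to 496 kb. Differences between distance classes were not tested. Blocks of 80 kb on either side gave no difference of 2-fold between genotypes, in 0 of 59 blocks with at least 20 contacts in ESCs and 0 of 52 in MNs, where 0.23% and 0.476% of the blocks around all promoters did.

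**Figure D1:**
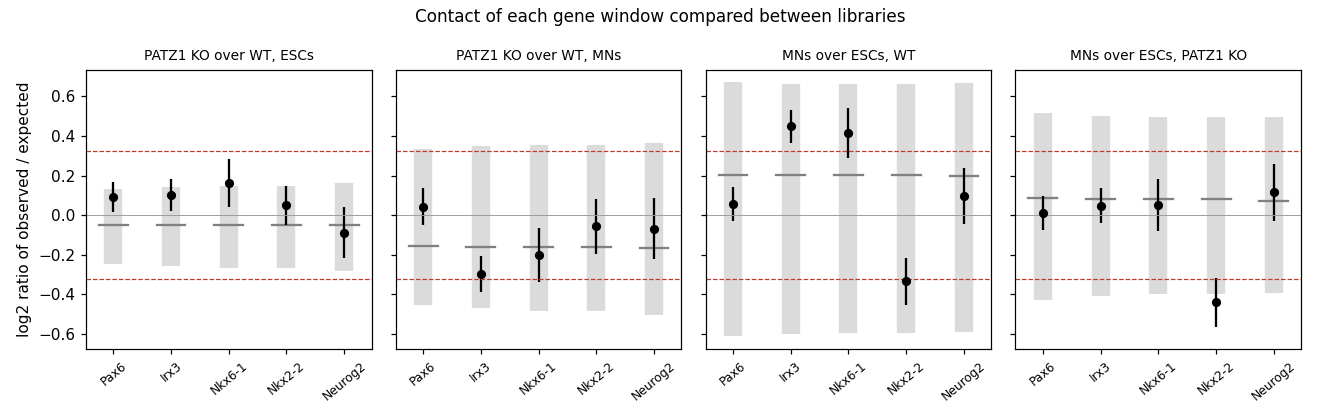
Log2 ratio of observed over expected contact for each gene window in the 4 comparisons (points, with 95% counting intervals), grey bars for the 5th to 95th percentile and grey lines for the median of promoter windows of the same size, and dashed lines at 0.32 and -0.32. No gene passes the lines between the genotypes, and Nkx2-2 lies below them in MNs over ESCs for both genotypes.

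From ESCs to MNs the 5 genes moved in different ways. In WT the log2 ratio of MNs over ESCs was 0.06 (-0.03 to 0.14) for Pax6, 0.45 (0.37 to 0.53) for Irx3, 0.41 (0.29 to 0.54) for Nkx6-1, -0.33 (-0.45 to -0.22) for Nkx2-2 and 0.10 (-0.05 to 0.24) for Neurog2. In PATZ1 KO it was 0.01 (-0.08 to 0.09), 0.05 (-0.04 to 0.14), 0.05 (-0.08 to 0.18), -0.44 (-0.56 to -0.32) and 0.12 (-0.03 to 0.26) in that order. In WT 3 of the 5 passed the threshold, 2 higher and 1 lower, where 46.8% of promoter bins did. In PATZ1 KO 1 of the 5 passed, where 27.4% did. These shares are for single promoter bins, and for windows of 2 to 6 bins they were 48.4% to 50.3% in WT and up to 28.4% in PATZ1 KO. From the promoter bins alone 1 of the 5 passed in each genotype, Nkx2-2.

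Nkx2-2 was past the threshold in both genotypes, at percentile 12.3 of promoter windows in WT and 3.82 in PATZ1 KO. In WT it lay close to the threshold, and fell short of it at -0.31 with neighbouring bins included and at -0.3198 with a reach of 250 kb. Its promoter bin alone, relative to promoter bins of the same GC class, was at -0.79 in WT and -0.57 in PATZ1 KO. Irx3 and Nkx6-1 were past the threshold in WT and not in PATZ1 KO, a difference that was not tested, at percentiles 78.2 and 74.4 in WT. With the columns turned round in both cell states, Irx3 and Nkx6-1 would be past it in PATZ1 KO and not in WT. Their promoter bins alone were not past it in WT, at 0.28 and 0.14, and stood below promoter bins of the same GC class, at -0.15 and -0.22. In PATZ1 KO their promoter bins alone were at 0.28 and -0.13, and at 0.15 and -0.26 against the same class. The promoter bin of Irx3 was thus at 0.28 in both genotypes. For Pax6 and Neurog2 the WT values against the same class were -0.29 and -0.22. The WT ratio also moved with GC content, from -0.50 in the lowest class to 0.44 in the highest, more than the PATZ1 KO ratio, from -0.09 to 0.12.

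The contacts of each gene were also split by side, with an expected share of 50% on the lower-coordinate side. Pairs at 0 in either library of a cell state are absent from both sides, and the part of this in the shares was not tested. Nkx6-1 had the most one-sided contacts of the 5. Its share on the lower side was 68.4% (65.6 to 71.1) and 73.3% (70.7 to 75.8) in WT and PATZ1 KO ESCs, and 86.2% (83.9 to 88.4) and 85.0% (82.4 to 87.4) in MNs. The shares of both MN libraries lay above those of both ESC libraries, and the distance from 50% was larger than in 99.7% and 99.6% of promoter windows in MNs and in 92.8% and 97.1% in ESCs.

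Nkx2-2 also faced its lower side, with 62.1% (59.8 to 64.4), 61.4% (58.9 to 63.7), 67.6% (64.4 to 70.8) and 66.7% (63.3 to 69.9) in the same order. The MN libraries were higher than the ESC libraries here too, by less than for Nkx6-1. The distance of Nkx2-2 from 50% was larger than in 77.8% and 74.2% of promoter windows in ESCs and in 89.3% and 86.7% in MNs. Read from the promoter bin alone, its share was 49.3% in WT and 47.2% in PATZ1 KO ESCs, so the lean in ESCs lay in the rest of its window. Within 250 kb the share of the whole window was 52.9% and 52.6% in ESCs and 59.0% and 58.7% in MNs.

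Pax6 leaned the other way in MNs, with 46.9% (45.1 to 48.7) and 47.6% (45.7 to 49.5) on the lower side in WT and PATZ1 KO ESCs and 40.6% (38.3 to 42.8) and 37.0% (34.8 to 39.3) in MNs. Irx3 went from 44.5% (42.5 to 46.4) and 45.6% (43.7 to 47.6) in ESCs to 49.2% (47.1 to 51.3) and 51.6% (49.3 to 54.0) in MNs. Neurog2 stayed between 39.7% and 44.0% in the 4 libraries, with overlapping intervals.

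**Figure D2:**
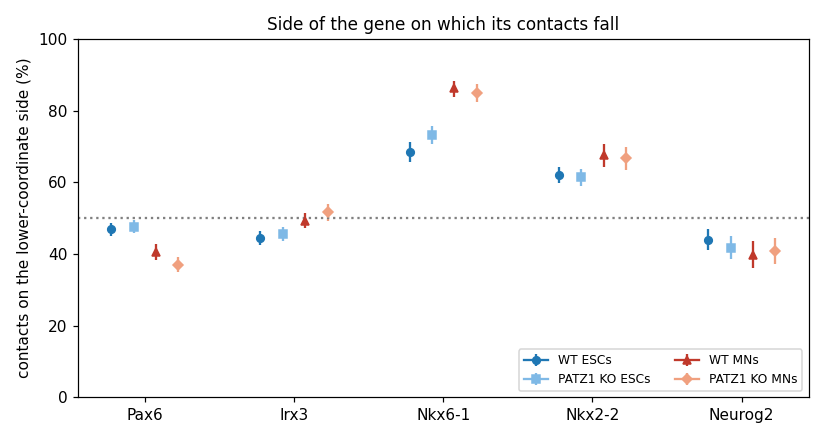
Share of each gene's contacts from 16 to 496 kb that fell on its lower-coordinate side (percent, points with exact 95% intervals) in the 4 libraries, with a dotted line at the expected 50%. Nkx6-1 goes from 68.4% and 73.3% in ESCs to 86.2% and 85.0% in MNs.

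Blocks of 80 kb show which stretches these shares came from. Over the 5 genes, 10 of 58 blocks with at least 20 contacts differed by 2-fold or more between MNs and ESCs in WT (2 higher, 8 lower), where 16.4% of the blocks around all promoters did. In PATZ1 KO it was 6 of 57 (1 higher, 5 lower), where 14.5% did. Both shares, 17.2% and 10.5%, are near the background, so such differences are not particular to the 5 genes as a group. A block could reach the minimum of 20 contacts through ESCs alone, and then had to be lower in MNs, so the values of such blocks below are a description. Listed pairs hold contacts in both libraries of a cell state, so the WT and PATZ1 KO counts of sparse blocks are not independent.

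The clearest contrast of Nkx6-1 lay in the 4 blocks 168 to 480 kb to its higher side, over Wdfy3, which encodes an autophagy adaptor, and the stretch beyond it. They held 119 and 103 contacts in the ESC libraries and 18 and 18 in the MN libraries. In the nearest of them (chromosome 5, 101832001 to 101912000) the counts were 45, 39, 4 and 4, or 0.601, 0.548, 0.0940 and 0.0957 times expected. The log2 ratio of MNs over ESCs there was -2.68 (-4.61 to -1.22) in WT and -2.52 (-4.46 to -1.05) in PATZ1 KO, at percentiles 0.286 and 0.378 of all such blocks. Keeping only pairs listed in both cell states turned it to 0.52 and 0.47 and left none of the 4 blocks past 2-fold. That setting drops every pair with no listed contact in MNs, and the part of this in the change was not tested. Thinning all libraries to the smallest total left the ratio at -2.55 and -2.20.

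The lower side of Nkx6-1 is a gene desert with no protein-coding gene within reach. There the 6 blocks ran in ESCs from 0.827 to 2.78 times expected in WT and from 0.972 to 2.96 in PATZ1 KO, and in MNs from 1.12 to 4.58 and from 1.01 to 4.08. The block 168 to 240 kb away (101408001 to 101488000) had 103, 110, 129 and 102 contacts, or 1.37, 1.55, 3.03 and 2.44 times expected. Its log2 ratio of MNs over ESCs was 1.14 (0.76 to 1.53) in WT and 0.66 (0.26 to 1.06) in PATZ1 KO. It fell short of 2-fold in WT when libraries were thinned, at 0.98, and with pairs listed in both cell states, at 0.74, where PATZ1 KO stood at 0.31. The next block towards the gene (101488001 to 101568000) had 133, 176, 161 and 117 contacts and was the one where the genotypes differed most within this desert, with a log2 ratio of the genotypes of 0.49 (0.16 to 0.83) in ESCs and -0.43 (-0.78 to -0.08) in MNs.

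For Nkx2-2 a like contrast was in the block over Pax1, the paired-box gene of the sclerotome (chromosome 2, 147352001 to 147432000). It held 80 and 85 contacts in WT and PATZ1 KO ESCs and 16 and 13 in MNs, or 0.959, 1.13, 0.335 and 0.278 times expected. The ratio of MNs over ESCs was -1.52 (-2.39 to -0.73) in WT and -2.03 (-2.99 to -1.17) in PATZ1 KO. With pairs listed in both cell states it was -0.72, no longer past 2-fold, in WT and -1.24 in PATZ1 KO. Nearer the gene, the block from 147272001 to 147352000 had 227, 227, 82 and 83 contacts, with ratios of -0.72 (-1.10 to -0.35) and -0.83 (-1.21 to -0.46). On the lower side, over Kiz, which encodes a centrosomal protein, contact was high in every library: the block from 146928001 to 147008000 had 259, 216, 144 and 101 contacts, or 3.11, 2.88, 3.02 and 2.16 times expected. The genotypes there differed by -0.11 (-0.38 to 0.16) in ESCs and -0.48 (-0.86 to -0.10) in MNs, PATZ1 KO relative to WT.

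Pax6 had its highest MN contact at the far end of its higher side, past Elp4, Immp1l and Dnajc24, where no protein-coding gene lies (chromosome 2, 106104001 to 106184000). That block held 101, 103, 113 and 140 contacts, or 1.74, 1.90, 3.09 and 3.82 times expected. The ratio of MNs over ESCs was 0.83 (0.43 to 1.23) in WT and 1.01 (0.63 to 1.39) in PATZ1 KO, and 0.26 and 0.56 with pairs listed in both cell states. Without that restriction the ratios ranked at percentiles 85.6 and 91.5 of the blocks around all promoters. On the lower side, 328 to 400 kb away within Them7, a thioesterase family gene (105256001 to 105336000), the counts were 144, 165, 41 and 56, or 1.70, 2.10, 0.812 and 1.11 times expected, with ratios of -1.07 (-1.60 to -0.56) and -0.92 (-1.38 to -0.47). These were -0.45 and -0.31 with pairs listed in both cell states. The next block outwards, also in Them7, had 54, 58, 19 and 20 contacts and ratios of -0.84 and -0.97, which turned to 0.66 and 0.23 with pairs listed in both cell states. The higher side of Pax6 held 38.4% GC and the lower side 44.4%.

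Contact of Pax6 with the body of Elp4, an Elongator subunit gene next to it, was similar in all 4 libraries. It counted 962, 854, 653 and 670 contacts, or 1.15, 1.15, 1.24 and 1.30 times expected. The ratio of MNs over ESCs was 0.11 (-0.04 to 0.26) in WT and 0.17 (0.02 to 0.32) in PATZ1 KO.

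Irx3 had more contact with the body of Fto, an RNA demethylase gene, in both MN libraries than in both ESC libraries. It counted 650, 709, 681 and 603 contacts, or 1.17, 1.37, 2.06 and 1.86 times expected, and the ratio of MNs over ESCs was 0.82 (0.66 to 0.97) in WT and 0.44 (0.28 to 0.60) in PATZ1 KO. PATZ1 KO stood above WT by 0.23 (0.07 to 0.38) in ESCs, and its ratio in MNs was -0.15 (-0.31 to 0.01). Within Fto, the block from 91464001 to 91544000 reached 1.63, 1.78, 2.97 and 2.72 times expected with 193, 196, 205 and 185 contacts. Its ratio of MNs over ESCs was 0.86 in WT and 0.62 in PATZ1 KO, and 0.65 and 0.35 with pairs listed in both cell states. Without that restriction the ratios ranked at percentiles 86.5 and 81.3 of the blocks around all promoters. A rise in WT was not particular to Fto. On the higher side the ratios were 0.67 and 0.01 in the block 248 to 320 kb away, and 0.10 and -0.22 in that 88 to 160 kb away. No block of Irx3 passed 2-fold between the cell states.

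Neurog2 had its highest level in every library in the block over Alpk1 and Tifa, a pair of innate immune signalling genes (chromosome 3, 127720001 to 127800000). It held 178, 175, 131 and 139 contacts, or 2.15, 2.35, 2.86 and 2.88 times expected, and took 16.6%, 19.2%, 19.6% and 20.5% of the gene's contacts. The ratio of MNs over ESCs was 0.41 (0.07 to 0.74) in WT and 0.30 (-0.04 to 0.63) in PATZ1 KO, and 0.25 and 0.10 with pairs listed in both cell states. Without that restriction the ratios ranked at percentiles 66.6 and 65.9 of the blocks around all promoters. Towards Ank2, on the lower side, the blocks ran from 0.720 to 1.55 times expected over all 4 libraries.

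**Figure D3:**
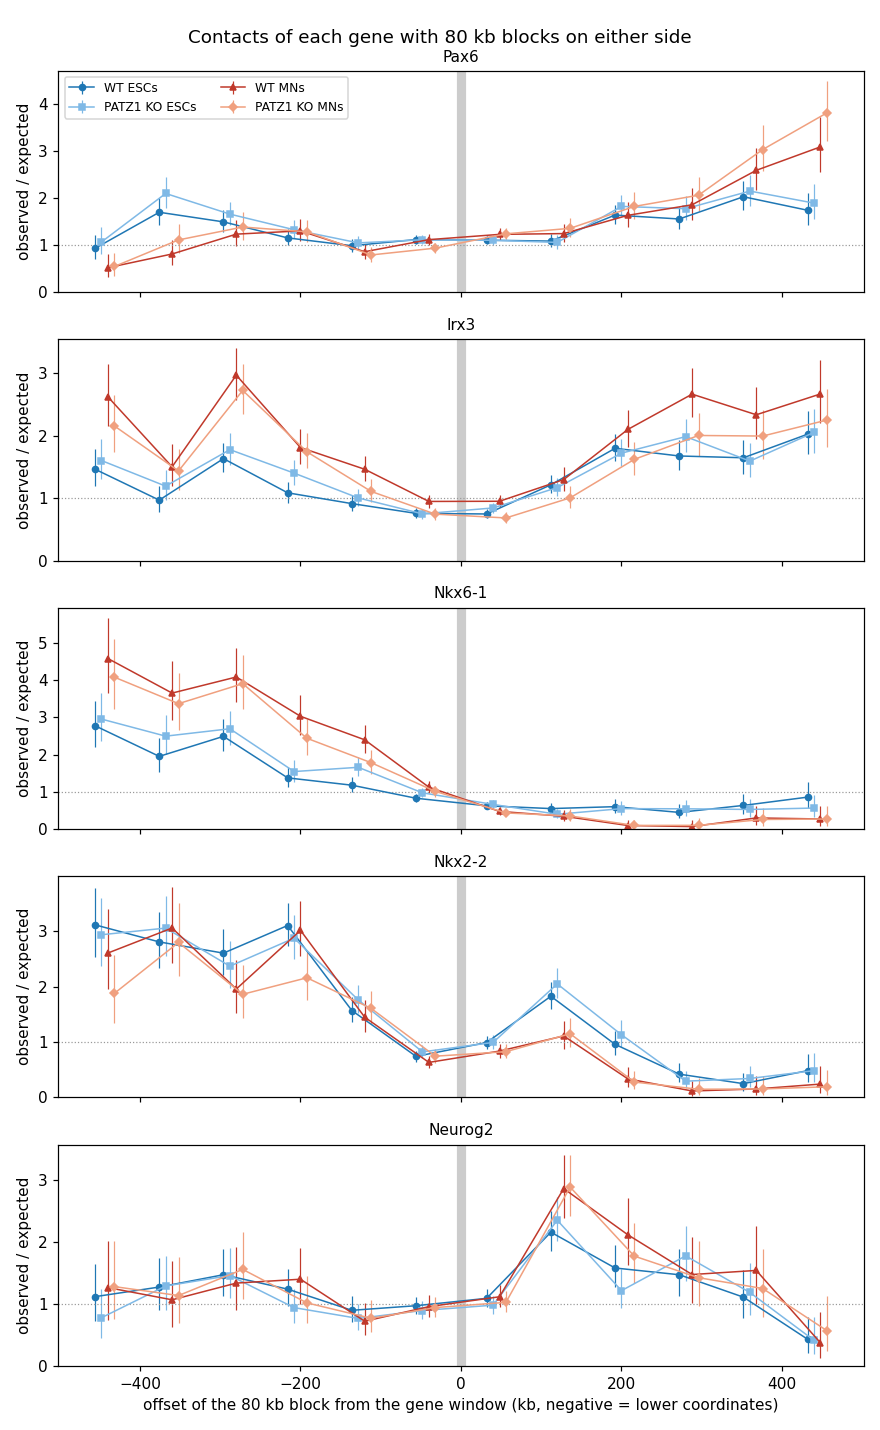
Observed over expected contact of each gene window with 80 kb blocks (y axis, points with exact 95% counting intervals) against the offset of the block from the window in kb (x axis, offset slightly by library), for the 4 libraries. Nkx6-1 and Nkx2-2 are lowest on the far higher side in MNs, down to 0.0649 for Nkx6-1 in WT. That block held 2 contacts in WT MNs, with an interval of 0.00786 to 0.234. Pax6 reaches 3.09 and 3.82 at its far higher end.

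The single bins with the highest contact beyond 40 kb were then ranked by the mean of both libraries of a cell state, 3 for each gene and state. The bins of Nkx2-2 included several inside Kiz. The one from 146952001 to 146960000, 232 kb from the promoter bin, had 58, 44, 21 and 15 contacts, or 7.35, 6.21, 4.69 and 3.42 times expected, and it holds the CTCF-like string shown for the farther Kiz bin. Its neighbour from 146960001 to 146968000 had 44, 35, 22 and 18 contacts, or 5.39, 4.77, 4.75 and 3.95 times expected. Both ranked among the 3 in ESCs alone. The highest in MNs, from 146832001 to 146840000 and outside Kiz, had 26, 19, 16 and 13 contacts, or 5.34, 4.24, 5.66 and 4.61 times expected.

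For Nkx6-1 the bin from 101360001 to 101368000, in the gene desert 304 kb from the promoter, ranked among the 3 in both cell states. It had 16, 20, 17 and 26 contacts, or 3.05, 3.95, 5.64 and 8.74 times expected. Irx3 likewise shared the bin from 91528001 to 91536000 in Fto, 272 kb away, with 41, 36, 32 and 26 contacts, or 3.15, 2.98, 4.26 and 3.52 times expected. Both bins hold a string shown above.

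Neurog2 shared the 2 Alpk1 bins from 127752001 to 127768000. The farther of them had 32, 29, 24 and 21 contacts, or 4.05, 4.06, 5.54 and 4.63 times expected. The nearer had 26, 27, 14 and 30 contacts, or 3.14, 3.62, 3.04 and 6.22 times expected. Pax6 shared the bin from 106080001 to 106088000, 416 kb away and with no protein-coding gene, with 22, 23, 18 and 24 contacts, or 2.80, 3.14, 3.79 and 5.06 times expected. The bin 488 kb away (106152001 to 106160000) ranked for Pax6 in MNs alone, with 6, 6, 17 and 23 contacts.

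Contacts between promoter bins were few. Nkx2-2 and Pax1, 176 kb apart, had 10 and 9 contacts in ESCs, both 3.09 times expected, while the pair was not listed in MNs. Nkx2-2 met Nkx2-4, its neighbouring homologue, 10, 6, 2 and 3 times. Neurog2 met the bin shared by Larp7 and Zgrf1, 80 kb away, 2 and 2 times in ESCs and 9 and 7 times in MNs, and met Tifa 8, 12, 4 and 1 times. Pax6 met the bin shared by Elp4 and Immp1l 4, 7, 6 and 3 times. No order is read from counts of this size.

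Pax6 and Nkx2-2, which repress each other in the neural tube, lie 41.5 Mb apart on chromosome 2. Neither list held a pair in the square of 5 by 5 bins around both promoters. The mean square at this distance held 0.00782 contacts in WT ESCs and the exact upper limit for 0 contacts is 3.69, so at this depth no contact of theirs was detectable.

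Insulation was measured as the log2 of contact across a bin over expectation, in squares of 240 kb. At the promoter of Nkx6-1 it was -0.68 and -0.73 in ESCs and -1.30 and -1.49 in MNs, at percentiles 12.6, 13.7, 4.86 and 3.83 of all bins. The local minimum lay next to the promoter, 24 kb to its higher side in ESCs and 16 kb in MNs. Contact across this position was thus lower in both MN libraries than in both ESC libraries.

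The nearest minimum of Nkx2-2 lay between it and Pax1, 128 kb from the promoter in ESCs and 136 kb in MNs. At the first of these bins the scores were -0.47 and -0.33 in WT and PATZ1 KO ESCs and -0.94 and -1.01 in MNs. Pax6 had its minimum 424 kb to the lower side in Them7, at -0.38, -0.33, -0.65 and -0.67. Neurog2 had one 336 kb to the higher side, beyond Fam241a, at -0.40, -0.34, -0.76 and -0.86. These 3 minima were deeper in both MN libraries than in both ESC libraries. Irx3 went the other way. A minimum 296 kb to its lower side, in Fto, was called in ESCs alone, at -0.22 and -0.24 against 0.11 and -0.01 in MNs. Minima were called at scores of -0.2 or lower, so the call in Fto lay close to the limit. Nkx6-1 had a second minimum 472 kb to its higher side in ESCs, which was nearly level, at -0.80, -0.79, -0.86 and -0.90. How many minima around other promoters were deeper in MNs was not counted. Pairs at 0 in either library of a cell state are absent from the squares, and the MN libraries held fewer contacts. The part of either in the scores was not tested.

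At the promoters themselves, Pax6 scored 0.45, 0.44, 0.30 and 0.27, Nkx2-2 0.07, 0.10, -0.08 and -0.02, and Neurog2 -0.08, -0.17, 0.49 and 0.38. Neurog2 was thus the gene whose promoter was crossed by more contact in both MN libraries than in both ESC libraries. Irx3 scored -0.03, -0.02, 0.20 and -0.20, and its MN libraries lay on opposite sides of the ESC libraries.

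**Figure D4:**
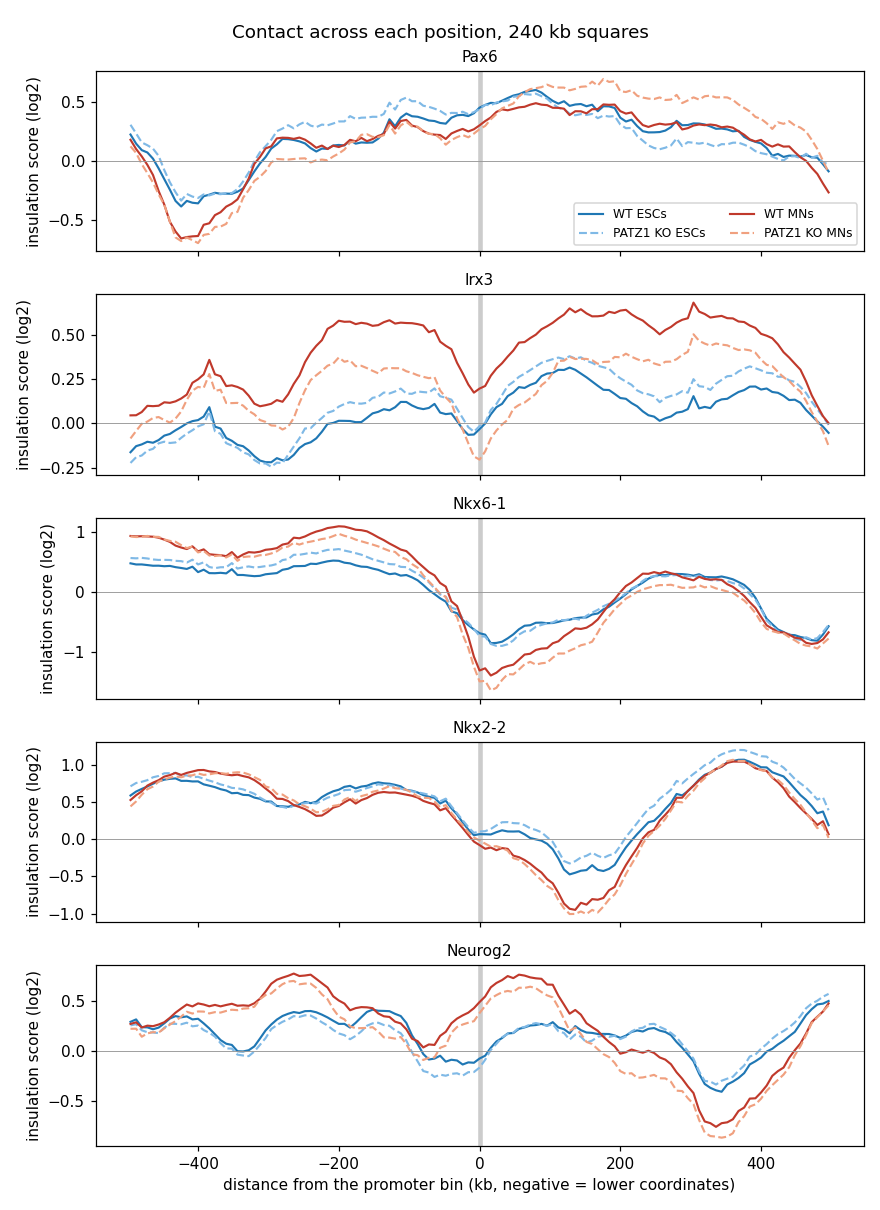
Insulation score (log2 of contact across each bin over expectation, 240 kb squares) against distance from the promoter bin in kb for the 4 libraries, with solid lines for WT and dashed lines for PATZ1 KO. The dips beside Nkx6-1, between Nkx2-2 and Pax1, in Them7 and beyond Neurog2 are deeper in MNs, the dip in Fto beside Irx3 lies lower in ESCs, and the far dip of Nkx6-1 differs little.

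The 5 genes were last set beside 25 other genes of neural tube patterning and Hedgehog signalling, by promoter bin and a threshold of 0.32. Between the genotypes 1 of 25 passed in ESCs (4%), the Hedgehog effector Gli1 at -0.47. In MNs 3 passed (12%), all lower: Gli1 at -0.39, the Hedgehog transducer Smo at -0.35 and Gsx1, a dorsal homeodomain gene, at -0.35. The medians of the list were 0.02 and -0.14, against -0.05 and -0.16 for all promoter bins. For MNs over ESCs, 9 passed in WT (36%), all higher, with Ptch1, the Hedgehog receptor, highest at 0.86 and Atoh1, a dorsal proneural gene, lowest at -0.23. In PATZ1 KO 2 were higher and 2 lower (16%), again with Ptch1 highest at 0.54, and Dbx2, a homeodomain gene of intermediate progenitors, lowest at -0.45. The medians were 0.22 and 0.08, against 0.19 and 0.08 for all promoter bins. In each comparison the share of the list past the threshold was below that of all promoter bins given above, a difference that was not tested. The 25 genes were not set against promoter bins of the same GC class.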

How the data were processed

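The authors had Micro-C reads mapped and contact matrices made and compared by the kit's maker, with WT and PATZ1 KO entered into HiCcompare for each cell state. Per the labels the build was mm10, and none of the 20 listed chromosomes has a bin past its GRCm38 end. The deposited interaction frequencies are counts, whole numbers of contacts for 2 bins of 8 kb. The adjusted ones are a signal in which the authors had normalized the 2 libraries of a cell state together, and served as an alternative. The authors' log2 ratios, scores and p-values per pair were not used. No listed pair had 0 contacts in either library or lay between chromosomes.

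Expected contact was the mean over covered pairs at the same distance, chromosome and library. Promoter bins with at least 100 contacts in every library, 18017 of 19715, gave the background, and blocks needed 20 contacts in the compared libraries, with windows of 3 bins. Ratios have exact conditional binomial intervals, counts exact Poisson and shares Clopper-Pearson intervals at the 95% level, for counting error only, and PCR copies are not independent molecules. With 1 library per group there was no test across features, and differences were read against a log2 ratio of 0.32, or 2-fold for blocks. The ratio and its interval were tried on simulated data of independent Poisson counts. The simulation dropped no pair that a library lacked, so it does not check the intervals under the listing rule of these data.

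Named were the 5 genes, Elp4 and Fto, and the extremes of the list of 25. Of the 3 strongest distal bins per gene and cell state, and of the neighbours with a promoter within 500 kb, only a part was named. Kiz, Alpk1 and the blocks and borders described were chosen after their values were seen. The genes and lists were chosen with earlier results of these data known. Annotation was GENCODE vM21 and RefSeq. Python 3.11.15, numpy 2.4.6, scipy 1.17.1, pandas 2.3.3 and matplotlib 3.10.9 were used.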

Additional observations from a re-analysis of the deposited data

Results flagged for a closer look

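For Nkx6-1 and Irx3 the PATZ1 KO over WT ratio of contact from 16 to 496 kb had opposite signs in ESCs and MNs, with counting intervals that left out 0 in both. The log2 ratio of Nkx6-1 was 0.16 in ESCs and -0.20 in MNs, and that of Irx3 was 0.10 in ESCs and -0.30 in MNs. The median of all promoter bins was itself below 0, at -0.05 in ESCs and -0.16 in MNs. Among promoter windows of its size, Nkx6-1 ranked at percentile 95.9 in ESCs and 43.7 in MNs. Irx3 ranked at 91.1 and 26.6. With 1 library per group the difference between the cell states was not tested. Relative to single promoter bins of the same GC class, the MN ratios of both gene windows were 0.09 and 0.08, and those of their promoter bins alone were 0.19 and 0.35, so the opposite signs were not kept under that alternative. From the promoter bin alone the ratios of Irx3 were -0.02 in ESCs and -0.02 in MNs, again without opposite signs. Those of Nkx6-1 were 0.17 in ESCs and -0.10 in MNs, with opposite signs kept and counting intervals that held 0. The part of GC content was not tested.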

How the results depend on the processing

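With 1 library per group no library could be left out, and counts limit every value. No paired analysis was possible because the groups share only 1 replicate number. Of 150 gene ratios under an alternative, 120 stayed within the counting interval of the reported value, 30 left it, and none past the threshold, a log2 ratio of 0.32, turned sign. PATZ1 KO over WT in MNs had 0 genes past it as reported and 1 with library totals, a reach of 250 kb or an expectation over all autosomes (Irx3), and 1 relative to promoter bins of the same GC class (Pax6), where the median of the 5 went to 0.22. This GC setting sets gene windows against single bins. Between promoter bins alone it put Nkx2-2 (0.38) and Irx3 (0.35) past the threshold and left Pax6 at 0.27, so the gene called depends on the window. MNs over ESCs in WT had 3 genes past it as reported, 2 with neighbouring bins or a reach of 250 kb, where Nkx2-2 fell short at -0.31 and -0.3198, 2 relative to the same GC class (Nkx2-2 and Pax6, the latter at -0.35 and, between promoter bins alone, at -0.29), and 1 from the promoter bin alone. Its median went from 0.10 to -0.26 relative to the same GC class. In PATZ1 KO the median of MNs over ESCs, 0.05, went to -0.054 with a reach of 250 kb, -0.13 from the promoter bin, -0.10 with library totals and -0.077 relative to the same GC class. The ratio of Nkx2-2 was below 0 under all of these. In PATZ1 KO ESCs 1 gene in place of 2 had over 50% on the lower side when read from the promoter bin. The GC and thinning alternatives, and the correction of blocks for their own coverage, were chosen after seeing the data.

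For the blocks, thinning all libraries to the smallest left the nearest Wdfy3 block of Nkx6-1 at -2.55 in WT and -2.20 in PATZ1 KO and the Pax1 block of Nkx2-2 at -1.30 and -1.85, and took the Nkx6-1 block 328 to 400 kb away to -0.55 in PATZ1 KO, short of 2-fold. It also took every block counted as 2-fold higher in MNs below that size: the 2 of Nkx6-1 in WT went from 1.14 to 0.98 and from 1.03 to 0.98, and that of Pax6 in PATZ1 KO from 1.01 to 0.91. Dividing by the blocks' own contact level gave -3.01 and -2.56, and -1.41 and -1.66. It brought the desert block of Nkx6-1 168 to 240 kb away from 1.14 to 0.76 in WT. Keeping only pairs listed in both cell states turned the Wdfy3 block to 0.52 and 0.47. That setting drops every pair with no listed contact in MNs, and the part of this in the change was not tested. The other 3 blocks on that side went to between -0.93 and 0.40, the Pax1 block to -0.72 and -1.24, the Them7 block of Pax6 to -0.45 and -0.31 and its far higher block to 0.26 and 0.56. The outermost Them7 block turned from -0.84 and -0.97 to 0.66 and 0.23. Of the 15 strongest distal bins per cell state, 14 in ESCs and 11 in MNs were kept with a minimum of 10 contacts.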
